A study of Mus musculus with 2 samples.

Results

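The genes described here are 9 carriers and channels that move ions and water across the alveolar epithelium: Scnn1a, Scnn1b, Scnn1g, Aqp5, Atp1b1, Cftr, Slc26a4, Slc12a2 and Fxyd3. The list is one of symbols and its rule uses no measured value, but the genes were chosen with earlier results of these data known. All 9 of 9 were found among the 27998 genes counted in both libraries. Single-cell RNA sequencing (scRNA-seq) was done on mouse lung organoids of the C57BL/6 strain, 1 library from control organoids given PBS and 1 from organoids given the cytokine IL-1β. AT2 cells, the surfactant-making cells of the alveolus, had been isolated from tamoxifen-treated Sftpc-CreERT2;R26RTomato mice, in which the Sftpc promoter drives the Cre, and were grown with lung stromal cells. Both groups share this lineage label, the tamoxifen and the stromal cells, and the labels give 2 weeks of culture, although the study also names a later day of harvest. The number of mice behind each library was not given in the sources used here. With 1 library per condition there is no replicate check. No p-value is therefore given, and the 95% intervals below cover counting error only.

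Fluid in the alveolus is cleared when sodium enters epithelial cells through the epithelial sodium channel (ENaC) and leaves through the basolateral sodium pump, and water follows. The same epithelium can secrete when chloride, brought in by a basolateral cotransporter, leaves through apical channels and exchangers. AT1 cells are the thin cells that cover most of the alveolar surface, AT2 cells are their progenitors, and damage-associated transient progenitors (DATPs) are the Krt8-high cells between them.

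Levels are given in CPM: all unique molecular identifiers (UMIs, counted transcripts) of a cell class were pooled, and the UMIs of a gene were expressed per 1000000 of these. The control library held 2101 cell barcodes and the IL-1β library 3066, with medians of 14613 and 11496.5 UMIs, and 11 barcode sequences occurred in both. The doublet caller marked 3 of 5142 cells (0.0583%), too few for it to be regarded as having worked, so doublets remain. Cells were clustered without the 9 genes or their pathway partners and named from other markers. This gave 895 control and 1661 IL-1β AT2-like cells, 115 and 178 DATP-like cells, 229 and 326 AT1-like cells, and 796 and 475 stromal cells. In 12 of the 13 epithelial clusters, 95% or more of the cells belonged to a single library. The AT2-like class was mainly 1 cluster led by Acoxl in the control library (880 cells) and 3 clusters led by Spink5, BC030867 and Cxcl5 in the IL-1β library. Of the control AT2-like cells, 13 lay in the Cxcl5-led and 2 in the Spink5-led cluster. The AT1-like class was mainly an Igfbp2-led control cluster and an Akap5-led IL-1β cluster, and the DATP-like class mainly 1 cluster in each library. Within a class, what separates the libraries cannot be told apart from how each was prepared. The naming used marker lists that hold Ager, Sftpc and Cldn4, so their levels describe the classes and are no check of the names. Ager, an AT1 marker, gave 13261 CPM in control AT1-like cells against 924 in AT2-like cells. Sftpc gave 98912 in control AT2-like against 25576 in AT1-like cells. Cldn4, a DATP marker, gave 394 in IL-1β but 64.5 in control DATP-like cells, in which Sftpc was at 92595. The 13 DATP markers summed to 1005 CPM in control AT2-like, 3413 in DATP-like and 3877 in AT1-like cells. They summed to 8949 in IL-1β DATP-like cells. Krt8 gave 270, 465 and 538 in control AT2-like, DATP-like and AT1-like cells. The DATP-like cells of the 2 libraries were thus unlike in these markers, and ratios between them compare unlike cells.

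The promoters of 4 of the genes are shown because Scnn1b and Scnn1g lie beside each other and moved together, Slc26a4 moved the opposite way, and Fxyd3 alone held a match to a motif that was searched. Each runs from 250 bases before to 50 after the RefSeq start site, 5′ to 3′ on the strand of the gene (GRCm38.p6). Capitals mark the motif match.

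Scnn1b, chr7:121864788-121865087, plus strand: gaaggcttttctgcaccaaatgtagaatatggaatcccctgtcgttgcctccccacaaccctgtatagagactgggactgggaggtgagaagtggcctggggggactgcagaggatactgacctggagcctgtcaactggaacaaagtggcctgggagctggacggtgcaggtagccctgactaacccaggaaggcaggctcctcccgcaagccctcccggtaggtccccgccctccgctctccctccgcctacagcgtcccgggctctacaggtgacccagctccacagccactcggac

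Scnn1g, chr7:121734229-121734528, plus strand: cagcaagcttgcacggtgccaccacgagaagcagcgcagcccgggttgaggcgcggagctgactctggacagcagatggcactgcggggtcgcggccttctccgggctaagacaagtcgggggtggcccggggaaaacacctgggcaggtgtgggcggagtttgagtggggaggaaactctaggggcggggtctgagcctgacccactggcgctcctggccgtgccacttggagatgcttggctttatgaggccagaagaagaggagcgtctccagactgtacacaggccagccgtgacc

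Slc26a4, chr12:31559935-31560234, minus strand: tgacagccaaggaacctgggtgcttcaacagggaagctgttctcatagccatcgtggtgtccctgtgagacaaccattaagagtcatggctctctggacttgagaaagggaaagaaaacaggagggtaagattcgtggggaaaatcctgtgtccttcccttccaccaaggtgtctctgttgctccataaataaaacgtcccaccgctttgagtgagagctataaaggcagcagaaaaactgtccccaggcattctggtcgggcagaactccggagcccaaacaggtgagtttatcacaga

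Fxyd3, chr7:31076648-31076947, minus strand: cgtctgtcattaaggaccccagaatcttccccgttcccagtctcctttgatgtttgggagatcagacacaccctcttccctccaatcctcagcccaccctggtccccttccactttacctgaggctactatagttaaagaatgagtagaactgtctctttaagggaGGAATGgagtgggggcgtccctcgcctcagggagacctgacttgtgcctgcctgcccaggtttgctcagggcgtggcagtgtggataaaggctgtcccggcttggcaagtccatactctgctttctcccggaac

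The search covered both strands for the letters GGAATG (TEAD), TGANTCA (AP-1) and TTCNNNGAA (STAT), and for the longer NF-κB and glucocorticoid receptor motifs. Of 32851 mouse promoters of this length, 14.7% held GGAATG, 7.81% TGANTCA, 8.30% TTCNNNGAA, 0.411% the NF-κB and 0.475% the glucocorticoid receptor motif. Among the genes searched, those above with Aqp5, Atp1b1 and Cftr, the 1 match was GGAATG in Fxyd3, at -84 from the start site. The other windows do not contain these motifs, which says nothing about binding. G and C made up 61.7% of the Scnn1b window and 64.7% of that of Scnn1g, against 55.0% in Fxyd3.

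Scnn1a, Scnn1b and Scnn1g encode the α, β and γ subunits of ENaC, the apical entry step for sodium. Scnn1a (ENSMUSG00000030340) lies on chromosome 6 from 125320659 to 125344943. Scnn1g (ENSMUSG00000000216, chromosome 7, 121734479 to 121768475) and Scnn1b (ENSMUSG00000030873, chromosome 7, 121865038 to 121918514) are on the same strand, 96562 bases apart. All 3 had their highest level in AT1-like cells in both libraries, a lower level in DATP-like cells and a lower level still in AT2-like cells. All 3 were lower in the IL-1β library in each of these classes.

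Scnn1a gave 54.2 CPM in control AT2-like cells (95% Poisson interval 50.3 to 58.3), 205 in DATP-like cells (184 to 228) and 464 in AT1-like cells (441.1 to 488). In the IL-1β library it gave 43.0 (40.1 to 45.9), 154 (136 to 173) and 277 (262 to 293) in the same order. None of these intervals overlapped between neighboring classes within a library. AT1-like cells exceeded AT2-like cells 8.56-fold in the control library (interval 7.83 to 9.37) and 6.45-fold in the IL-1β library (5.91 to 7.05). The ratio of IL-1β to control was 0.597 in AT1-like cells (0.554 to 0.644) and 0.750 in DATP-like cells (0.639 to 0.880), short of 2-fold in both. Under the alternatives the DATP-like ratio ran from -0.42 to -1.15 on the log2 scale, past 2-fold. In AT2-like cells the ratio was 0.793 (0.717 to 0.877). Here the direction depended on the clustering, since a resolution of 2.0 gave 0.29 on the log2 scale.

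Scnn1b had a steeper order than Scnn1a. Control AT1-like cells gave 328 CPM (308 to 348), DATP-like cells 42.4 (33.1 to 53.5) and AT2-like cells 7.93 (6.48 to 9.59). Stromal cells of the same library, which should lack the channel, gave 6.94 (5.61 to 8.49), with an interval that overlapped the AT2-like one. The control AT2-like level thus could not be told apart from the stromal one. Doublets remain, and their part in the stromal level was not tested. In the IL-1β library the values were 97.6 in AT1-like cells (88.6 to 107), 14.6 in DATP-like (9.59 to 21.2), 3.85 in AT2-like (3.04 to 4.81) and 1.27 in stromal cells (0.656 to 2.22). Here the AT2-like and stromal intervals did not overlap. The AT1-like level was 41.3 times the AT2-like level in the control library (33.8 to 51.0) and 25.3 times in the IL-1β library (19.8 to 32.7). From control to IL-1β the AT1-like level changed by a ratio of 0.298 (0.266 to 0.333), a larger reduction than that of Scnn1a, with intervals that did not overlap.

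Scnn1g followed the same order. It gave 287 CPM in control AT1-like cells (269 to 306), 29.3 in DATP-like cells (21.6 to 38.7) and 4.68 in AT2-like cells (3.59 to 6.00), the last against 5.39 in stromal cells (4.23 to 6.78). In the IL-1β library it gave 76.0 in AT1-like cells (68.1 to 84.6), 10.8 in DATP-like (6.59 to 16.6), 1.30 in AT2-like (0.850 to 1.91) and 0.317 in stromal cells (0.0654 to 0.927). The AT1-like excess over AT2-like cells was 61.4-fold in control cells (47.4 to 80.7) and 58.4-fold in IL-1β cells (39.2 to 90.8). In both libraries the AT2-like interval overlapped the stromal one. The control fold thus rests on an AT2-like level that could not be told apart from the stromal one. The IL-1β fold rests on 26 UMIs in AT2-like cells, against 3 in stromal cells. In AT1-like cells the ratio of IL-1β to control was 0.265 (0.233 to 0.300), with an interval that overlapped that of Scnn1b. The DATP-like ratios of Scnn1b and Scnn1g, -1.54 and -1.44 on the log2 scale, were -2.87 and -3.48 when all highly variable genes were clustered.

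**Figure D1:**
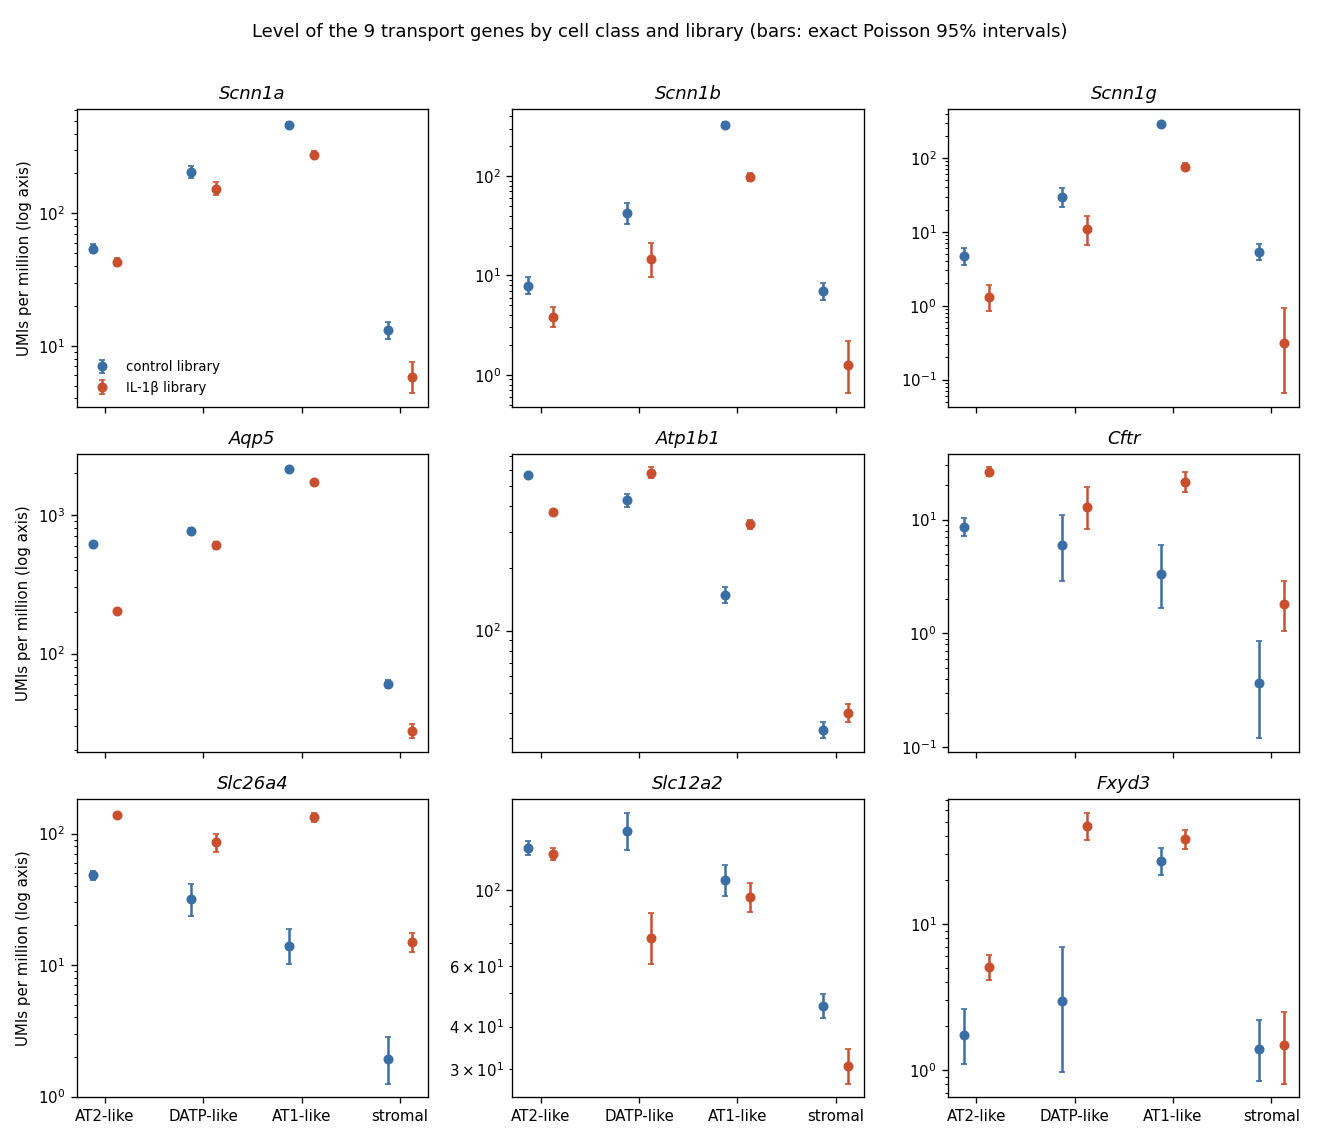
Level of each of the 9 genes in CPM (log axis) in AT2-like, DATP-like, AT1-like and stromal cells of the control (blue) and IL-1β library (orange), with exact Poisson 95% intervals. Scnn1a, Scnn1b, Scnn1g and Aqp5 rise from AT2-like to AT1-like cells in both libraries, whereas Cftr and Slc26a4 lie higher in the IL-1β library in every class.

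The make-up of the ENaC transcripts differed between classes. Scnn1a supplied 81.1% of the subunit UMIs in control AT2-like cells (885 UMIs, exact Clopper-Pearson interval 78.4% to 83.7%) and 43.0% in control AT1-like cells (3543 UMIs, 41.4% to 44.7%). In IL-1β AT1-like cells this share was 61.5% (2005 UMIs, 59.3% to 63.6%), between these values. Scnn1b supplied 30.4% of the subunit UMIs of control AT1-like cells and 21.6% of those of IL-1β AT1-like cells, and Scnn1g 26.6% and 16.9%. Control stromal cells held 51.6% Scnn1a, 27.2% Scnn1b and 21.2% Scnn1g, proportions nearer those of AT1-like than of AT2-like cells. The same stromal cells gave 3566 CPM of the AT2 marker Sftpc. The source of these epithelial UMIs in stromal cells was not tested.

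**Figure D2:**
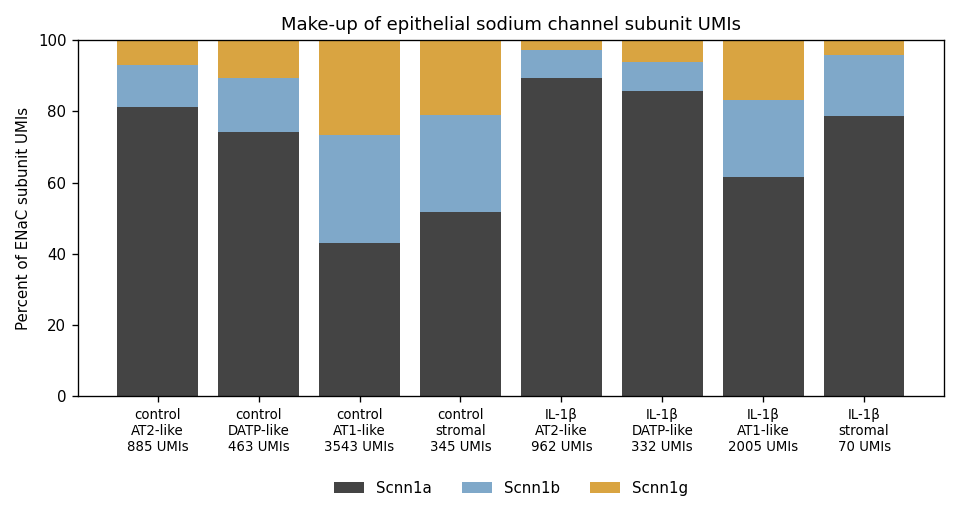
Percent of the summed ENaC subunit UMIs that came from Scnn1a, Scnn1b and Scnn1g in each class and library, with the number of UMIs under each bar. Scnn1a makes up 81.1% in control AT2-like and 43.0% in control AT1-like cells.

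Joint detection of the 3 subunits in single cells was counted as well. It depends on their levels and not only on their make-up. UMIs of all 3 subunits were found together in 185 of 229 control AT1-like cells (80.8%) and in 125 of 326 IL-1β AT1-like cells (38.3%). Thinned to 4500 UMIs per cell, a depth that every cell reached, the expected shares were 46.7% and 8.22%, with median depths of 11711 and 11817 UMIs. In AT2-like cells the unthinned shares were 0.559% and 0.0602%, and the thinned ones 0.00968% and 0.00542%. In control stromal cells, with a median of 15723.5 UMIs, 12 of 796 cells held all 3 (1.51% unthinned, 0.255% thinned), and 1 stromal cell held 18 UMIs of Scnn1a.

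Aqp5 encodes the apical water channel of AT1 cells (ENSMUSG00000044217, chromosome 15, 99590782 to 99594829). Control AT1-like cells gave 2153 CPM (2103 to 2204), DATP-like cells 766 (724 to 809) and AT2-like cells 617 (603 to 630). IL-1β AT1-like cells gave 1721 (1683 to 1760), DATP-like cells 602 (567 to 639) and AT2-like cells 203 (197 to 210), against 60.3 and 27.7 in control and IL-1β stromal cells. Aqp5 was thus well above the stromal level in AT2-like cells of both libraries. Among the epithelial classes it was there that the libraries differed most, with a ratio of 0.330 (0.317 to 0.342). The ratio was 0.786 in DATP-like (0.725 to 0.853) and 0.799 in AT1-like cells (0.774 to 0.826). Under the alternatives the DATP-like ratio ran from -0.35 to -1.04 on the log2 scale, past 2-fold. The excess of AT1-like over AT2-like cells was accordingly 3.49-fold among control cells (3.38 to 3.60) and 8.46-fold among IL-1β cells (8.15 to 8.79). After thinning, 87.3% of control and 50.8% of IL-1β AT2-like cells held an Aqp5 UMI, against 16.9% and 13.6% of stromal cells (unthinned 97.5%, 74.4%, 43.2% and 37.7%).

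Atp1b1 encodes the β1 subunit of the sodium pump, the basolateral exit step (ENSMUSG00000026576, chromosome 1, 164437109 to 164458355). Its order in the control library was opposite to that of ENaC, with 570 CPM in AT2-like cells (557 to 583), 428 in DATP-like cells (397 to 460) and 149 in AT1-like cells (136 to 163). The IL-1β library gave 377 in AT2-like (369 to 386), 583 in DATP-like (549 to 619) and 327 in AT1-like cells (311 to 345). AT1-like cells were at 0.262 of the AT2-like level in the control library (0.239 to 0.287) and at 0.868 in the IL-1β library (0.820 to 0.918). From control to IL-1β the level was lower in AT2-like cells, at a ratio of 0.662 (0.641 to 0.684), and higher in DATP-like cells, at 1.36 (1.24 to 1.5), and AT1-like cells, at 2.19 (1.98 to 2.44). The AT1-like ratio was short of 2-fold, at 0.75 to 0.83 on the log2 scale, with Louvain clustering, another random seed or a resolution of 2.0. Its highest value over the alternatives was 2.04. Split at the middle of their depth order, control AT1-like cells gave 87.2 CPM in the shallower and 171 in the deeper cells. IL-1β AT1-like cells gave 302 and 339. After thinning, 36.7% of control and 70.8% of IL-1β AT1-like cells held an Atp1b1 UMI (60.7% and 91.1% unthinned), against 13.8% and 16.2% of stromal cells (34.4% and 41.9% unthinned).

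Fxyd3 encodes a small membrane protein of the FXYD family, which modulate the sodium pump (ENSMUSG00000057092, chromosome 7, 31068172 to 31076704). In control cells it gave 27.1 CPM in AT1-like cells (21.8 to 33.3), 2.99 in DATP-like (0.97 to 6.97) and 1.74 in AT2-like cells (1.10 to 2.60), the last against 1.40 in stromal cells (0.845 to 2.19). In IL-1β cells it gave 38.0 in AT1-like (32.5 to 44.2), 46.9 in DATP-like (37.6 to 57.8) and 5.05 in AT2-like cells (4.12 to 6.14). The control DATP-like and AT2-like intervals both overlapped the stromal one, and 2 of the 5 control DATP-like UMIs were in 1 cell. The DATP-like classes stood furthest apart, 87 UMIs against 5, a ratio of 15.7 (6.48 to 49.6). This is 3.97 on the log2 scale, and it was 1.88 when all highly variable genes were clustered. In AT2-like cells the ratio was 2.91 (1.84 to 4.80), or 1.54 on the log2 scale, which was 2.76 at a resolution of 2.0 and 3.15 with unnamed clusters counted as AT2-like, and in AT1-like cells 1.40 (1.08 to 1.83).

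Slc12a2 encodes NKCC1, the basolateral sodium-potassium-chloride cotransporter that loads cells with chloride (ENSMUSG00000024597, chromosome 18, 57878678 to 57946821). It was the flattest of the 9 genes. Control AT2-like, DATP-like and AT1-like cells gave 133 (127 to 140), 149 (131 to 169) and 107 CPM (96.3 to 119), and IL-1β cells 128 (123 to 133), 72.8 (61.0 to 86.1) and 95.6 (86.7 to 105). The interval of the ratio of IL-1β to control included 1 in AT2-like cells, at 0.96 (0.904 to 1.02), and in AT1-like cells, at 0.891 (0.772 to 1.03), and both intervals, which cover counting error, lie inside 2-fold. In DATP-like cells the ratio was 0.487 (0.392 to 0.603), and it was -0.43 on the log2 scale when each library was clustered separately. Stromal cells gave 46.0 and 30.7 CPM in the control and IL-1β library.

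Cftr encodes the apical chloride and bicarbonate channel mutated in cystic fibrosis (ENSMUSG00000041301, chromosome 6, 18170687 to 18322768). Control cells gave 8.60 CPM in AT2-like (7.10 to 10.3), 5.97 in DATP-like (2.86 to 11) and 3.35 in AT1-like cells (1.67 to 5.99). IL-1β cells gave 26.4 (24.2 to 28.7), 12.9 (8.29 to 19.3) and 21.4 (17.3 to 26.1). The level was higher in the IL-1β library in all 3 classes, 3.06-fold in AT2-like (2.50 to 3.78), 6.38-fold in AT1-like (3.41 to 13.2) and 2.17-fold in DATP-like cells, where the interval of 0.998 to 5.08 included 1. Split at the middle of their depth order, IL-1β DATP-like cells gave 25.3 CPM in the shallower and 5.92 in the deeper cells. Control DATP-like cells gave 5.34 and 6.29. The AT1-like ratio, 2.67 on the log2 scale, set 95 UMIs against 11, and it was 4.19 without the 5% of cells that had the highest doublet scores, 3.91 when all highly variable genes were clustered and 3.47 as a mean over cells. After thinning, 3.52% of control and 10.5% of IL-1β AT2-like cells held a Cftr UMI (10.6% and 24.4% unthinned), against 0.171% and 0.867% of stromal cells (0.628% and 3.58% unthinned). Markers of the ionocyte, an airway cell type rich in Cftr, were counted as well. Foxi1 and Atp6v1b1 were at 0 in all 3 of these classes in both libraries, which allows up to 1.79 CPM in the smallest class. Ascl3 reached 0.650 CPM at most. In unnamed IL-1β cells, whose Ccl20-led cluster gave 53.2 CPM of Cftr, these 3 markers summed to 0.208. A part of ionocytes in the Cftr levels was not tested.

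Slc26a4 encodes pendrin, an apical exchanger of chloride for bicarbonate and other anions (ENSMUSG00000020651, chromosome 12, 31519827 to 31559969). It gave 48.0 CPM in control AT2-like cells (44.3 to 51.9), 31.7 in DATP-like (23.7 to 41.4) and 14.0 in AT1-like cells (10.3 to 18.7). In IL-1β cells it gave 138 (132 to 143), 85.7 (72.9 to 100.1) and 133 (123 to 145). The ratio of IL-1β to control was 2.87 in AT2-like (2.63 to 3.13), 2.71 in DATP-like (1.97 to 3.77) and 9.52 in AT1-like cells (7.05 to 13.1). On the log2 scale the AT1-like ratio was 3.25, against 4.26 without the cells of highest doublet score and 4.94 when all highly variable genes were clustered. Of the 46 UMIs in control AT1-like cells 14 were in 1 cell, without which their level was 9.85 CPM. Control AT1-like cells were at 0.292 of the AT2-like level (0.211 to 0.394), whereas IL-1β AT1-like cells were at 0.969 of it, with an interval of 0.886 to 1.06 that included 1. Thinned shares were 17.9% of control and 39.9% of IL-1β AT2-like cells, and 3.15% and 36.5% of AT1-like cells, against 0.878% and 6.80% of stromal cells (unthinned 39.8%, 63.9%, 8.30%, 59.2%, 3.02% and 19.8%). Stromal Slc26a4 was 7.77-fold higher in the IL-1β library as well, 14.9 against 1.92 CPM.

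**Figure D3:**
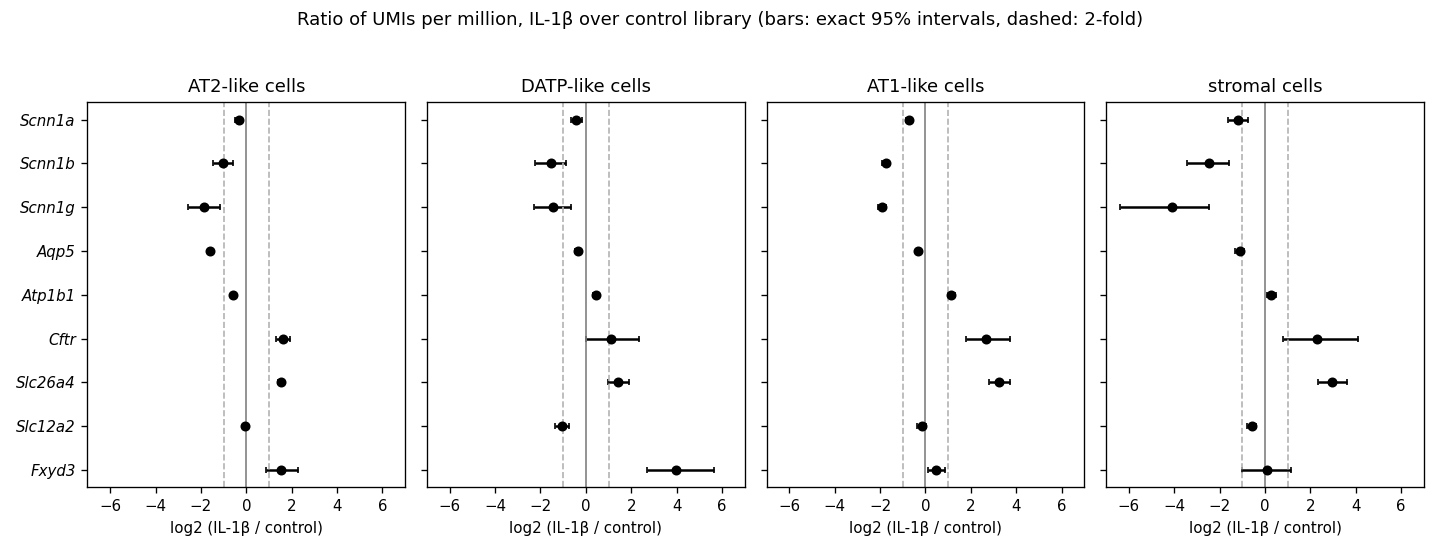
Ratio of IL-1β to control CPM on a log2 axis for each gene in 4 cell classes, with exact 95% intervals and dashed lines at 2-fold. Scnn1b and Scnn1g lie left of 0 and Cftr and Slc26a4 right of 0 in every panel, stromal cells included.

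Counted over comparisons with AT2-like cells, most members differed in AT1-like cells. In the control library 5 of the 9 were at least 2-fold higher in AT1-like cells (Scnn1a, Scnn1b, Scnn1g, Aqp5 and Fxyd3) and 3 at least 2-fold lower (Atp1b1, Cftr and Slc26a4), against 20.4% and 8.38% of the 11558 genes with at least 20 UMIs in this comparison. The lower Cftr, -1.36 on the log2 scale, was short of 2-fold with Louvain clustering, another random seed and a resolution of 2.0, and ran to -2.85 without the cells of highest doublet score. The lower Slc26a4, -1.78, was -2.78 under the same alternative and -3.29 when all highly variable genes were clustered. In the IL-1β library the same 5 were higher and 0 lower, against 14.7% and 8.35% of genes. The 8 AT2 markers summed to 31974 CPM in AT1-like and 134544 in AT2-like cells of the control library. In the IL-1β library they summed to 26311 and 110254. The part of AT2 transcripts within the AT1-like class in the member levels was not tested. The median log2 ratio of the 9 genes was 1.80 among control and 2.69 among IL-1β cells, against 0.40 and 0.32 over all genes. Because the genes were chosen with earlier results of these data known, these counts and medians are descriptions.

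DATP-like cells stood between AT2-like and AT1-like cells for ENaC. In the control library 3 of the 9 genes were at least 2-fold higher than in AT2-like cells, the ENaC subunits, and 0 were lower, where 8.23% of genes were higher and 3.93% lower. Scnn1a was 3.78-fold (3.31 to 4.31), Scnn1b 5.35-fold (3.90 to 7.30) and Scnn1g 6.25-fold higher (4.21 to 9.25). In the IL-1β library 5 were higher, the ENaC subunits, Aqp5 and Fxyd3, and 1 was lower, Cftr at 0.491 (0.312 to 0.738), where 9.05% of genes were higher and 6.53% lower. The lower Cftr was lost under 8 of 12 alternatives, and at a resolution of 0.5, which widened the DATP-like class to 625 IL-1β cells, Scnn1a, Scnn1b, Scnn1g and Aqp5 were short of 2-fold as well. Over the alternatives the log2 ratio of Scnn1g here ran down to 0.48 from 3.05, and that of Fxyd3 was 1.61 with unnamed clusters counted as AT2-like, from 3.21. The control DATP-like class held under 30 cells under 5 of the alternatives, another random seed among them, so its values describe 1 cluster of 115 cells.

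Between the libraries, 3 of the 9 genes were at least 2-fold higher in IL-1β AT2-like cells (Cftr, Slc26a4 and Fxyd3) and 3 lower (Scnn1b, Scnn1g and Aqp5), where 9.15% of genes were higher and 5.07% lower. The AT2-like ratio of Scnn1b, 0.486 (0.357 to 0.658), rose above 0.5 under 4 alternatives. Its control AT2-like level could not be told apart from that of stromal cells. The same holds for the control level of Scnn1g, 4.68 against 5.39 CPM in stromal cells, and its AT2-like ratio of -1.85 on the log2 scale was -0.97 with unnamed clusters counted as AT2-like, -1.04 without the cell filter and -1.15 when all highly variable genes were clustered. The stromal ratios of Scnn1b and Scnn1g were 0.183 (0.0912 to 0.335) and 0.0589 (0.0119 to 0.179), and their part in the AT2-like ratios was not tested. Control levels of Fxyd3 in AT2-like and DATP-like cells also could not be told apart from the stromal one. In DATP-like cells Cftr, Slc26a4 and Fxyd3 were higher and Scnn1b, Scnn1g and Slc12a2 lower, 3 each, where 8.36% of genes were higher and 4.57% lower. Of these, Slc26a4 was short of 2-fold when each library was clustered separately (0.80 on the log2 scale), Cftr when surfactant, mitochondrial and ribosomal protein genes were left out of the UMI total (0.93), and Slc12a2 under 3 alternatives (-0.43 to -0.93). In AT1-like cells 3 were higher (Atp1b1, Cftr and Slc26a4) and 2 lower (Scnn1b and Scnn1g), where 6.14% of genes were higher and 4.67% lower. The AT1-like cells of the 2 libraries also differed in their own markers, whose 11 genes summed to 21904 CPM in control and 12825 in IL-1β cells, and in the 13 DATP markers, at 3877 and 5357. Stromal markers summed to 3761 and 2414 in AT1-like cells, of which Sparc gave 3530 and 2162. The part of these differences in the member ratios was not tested.

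Clusters within a class were not alike. Of the 3 IL-1β AT2-like clusters, that led by Cxcl5 gave 257 CPM of Slc26a4 (468 cells), against 96.5 in the Spink5-led (690 cells) and 83.3 in the BC030867-led cluster (503 cells). An unnamed IL-1β cluster of 335 cells led by Cd14 gave 304. Its best marker score was that of the DATP list, 0.201 with 8 markers up, against -0.348 for AT2 and -0.369 for AT1. It stayed unnamed because markers of another class led. The 13 control cells in the Cxcl5-led cluster gave 191 of Slc26a4, against 45.4 in the Acoxl-led control cells. Of their 43 UMIs, 11 were in 1 cell, without which the level was 168. Scnn1a in the AT2-like clusters ran from 30.3 in the Spink5-led to 56.6 in the Cxcl5-led cluster, and was 103 in the Cd14-led cells, in which Aqp5 was 620 and Scnn1b 21.4. Cftr varied little among the IL-1β AT2-like clusters, at 24.4 to 30.1. Fxyd3 was highest in small unnamed clusters. It gave 269 in 36 IL-1β cells led by Ccl20, but 106 of its 162 UMIs there were in 1 cell, without which the level was 98.5. These cells held 0 UMIs of Scnn1b and Scnn1g (a count of 0 allows up to 4.99 CPM there). It gave 297 in 9 cells led by the airway gene Scgb3a1, and 234 without the cell that held 19 of its 66 UMIs. Cycling control cells (39) resembled control AT2-like cells in Atp1b1, at 507 against 571 in the Acoxl-led cluster, and gave 403 of Aqp5 against 623.

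**Figure D4:**
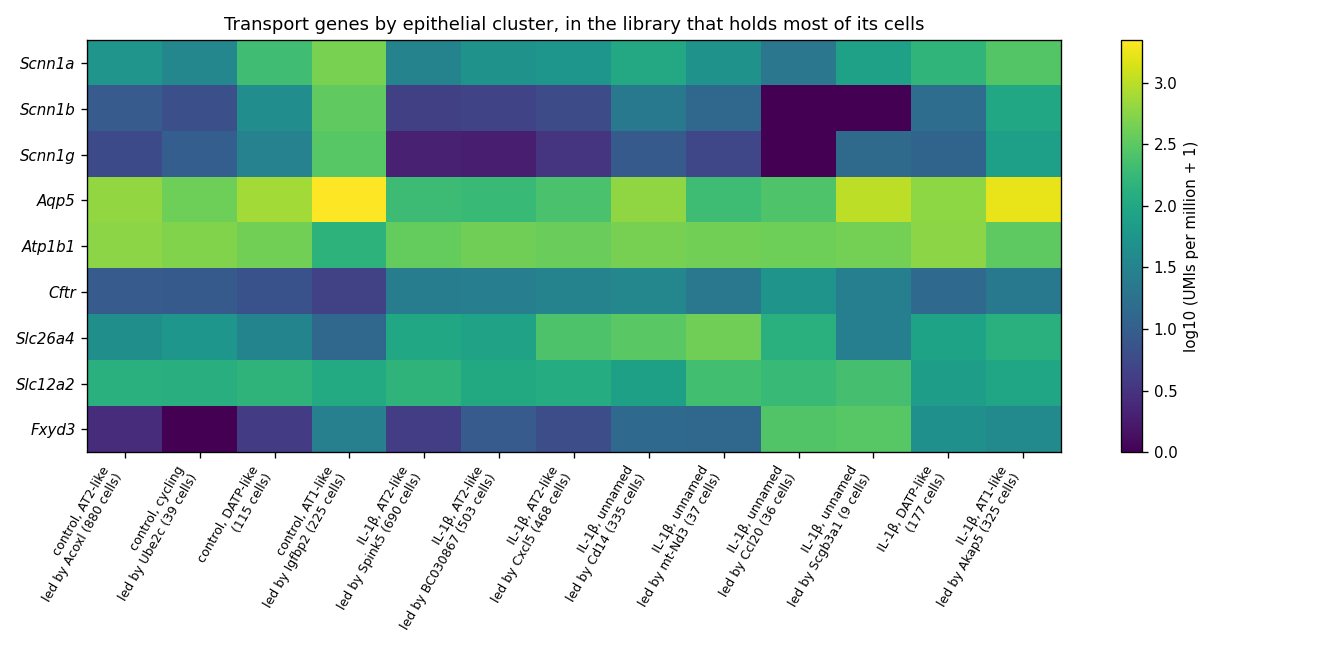
Level of the 9 genes, as log10 of CPM plus 1, in each epithelial cluster within the library that holds most of its cells, with the cell number of each and, outside the DATP-like class, its leading gene. Aqp5 and the ENaC subunits are brightest in the AT1-like clusters, Slc26a4 in the Cxcl5-, Cd14- and mt-Nd3-led IL-1β clusters, and Fxyd3 in the Ccl20- and Scgb3a1-led ones.

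Over the 12 epithelial clusters of at least 30 cells, the profiles of the ENaC subunits followed each other, with Pearson's r of log2(CPM + 10) of 0.982 for Scnn1b with Scnn1g, 0.937 for Scnn1a with Scnn1b and 0.902 for Scnn1a with Scnn1g. Aqp5 gave 0.889 to 0.900 with the 3, Cftr gave 0.783 with Slc26a4, and Atp1b1 gave -0.742 with Scnn1b and -0.761 with Scnn1g. Of 7787 genes, those most like Scnn1a were Eps8l2 (r = 0.981), Cldn18 (0.978) and Tspan5 (0.975). Those most like Scnn1b were Dag1 (0.984), Scnn1g and Ctdsp2 (0.980), and those most like Scnn1g were Trp53bp2 (0.993), 2310022B05Rik (0.992) and Dusp7 (0.987). S1pr2 (0.968), Pcbp4 (0.964) and Stard3 (0.964) came closest to Aqp5. Fcer2a (0.978), Pde4b (0.961) and Cd83 (0.961) came closest to Cftr, and Nfkb1 (0.946), Tjp3 (0.932) and Sftpd (0.930) to Slc26a4. For Fxyd3 these were Tspan3 (0.968), Rnf19b (0.968) and Ifngr1 (0.952). Fxyd3 was highest in the Ccl20-led cluster, where 106 of its 162 UMIs were in 1 cell, and the part of that cell in these values was not tested. The likeness was lower for Atp1b1 (C77080 0.924, Idh2 0.849, Gk 0.822) and Slc12a2 (Wdr77 0.897, Ralgapa1 0.831, Smurf1 0.830). The clusters share 2 libraries, and these values are descriptions.

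Of the 16 genes for ENaC and its regulators, 7 were at least 2-fold higher in control AT1-like than AT2-like cells and 2 lower, and in the IL-1β library 6 were higher and 1 lower, against 20.4% and 8.38% of all genes tested in the control and 14.7% and 8.35% in the IL-1β library. The 3 ENaC subunits are among those higher in both libraries. From control to IL-1β AT1-like cells 1 of the 16 was higher and 3 lower, in AT2-like cells 1 and 3, and in DATP-like cells 0 and 3 of 14 tested. Scnn1b and Scnn1g are among the lower ones in each class. Over all genes tested the shares higher and lower from control to IL-1β were 6.14% and 4.67% in AT1-like, 9.15% and 5.07% in AT2-like and 8.36% and 4.57% in DATP-like cells.

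Atp1b3, the other β subunit of the sodium pump found in these cells, gave 93.2 and 78.1 CPM in control and IL-1β AT2-like, 89.6 and 101 in DATP-like and 76.1 and 64.5 in AT1-like cells, and supplied 33.8% of the β-subunit UMIs in control AT1-like cells against 16.5% in IL-1β AT1-like cells. Atp1b2 had 9 UMIs over all epithelial cells.

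Among the FXYD proteins, Fxyd4, which raises the pump's affinity for sodium, differed far more between the libraries than Fxyd3. It gave 7.77 and 111 CPM in control and IL-1β AT2-like cells, 10.8 and 926 in DATP-like and 22.8 and 683 in AT1-like cells. These are ratios of 14.2 (11.7 to 17.5), 86.1 (54.3 to 146) and 29.9 (23.8 to 38.1), and the stromal levels were 14.0 and 35.2. Fxyd5 gave under 5 CPM in each epithelial class, below its stromal levels of 56.6 and 90.8, and Fxyd1 likewise lay under 7 against 226 and 79.1 in stromal cells. Fxyd6 gave 16.4 in control and 1.35 in IL-1β AT1-like cells, a ratio of 0.0820 from 54 and 6 UMIs. In AT2-like cells it went the other way, with 40 of 13248265 UMIs in control and 155 of 19990966 in IL-1β cells. Over the 13 genes of this list, 5 of 9 tested were higher in IL-1β AT2-like cells and 1 lower, 3 and 0 of 5 in DATP-like cells, and 2 and 2 of 8 in AT1-like cells. AT1-like over AT2-like cells gave 3 higher and 1 lower of 8 in the control and 2 higher and 3 lower of 9 in the IL-1β library. The shares over all genes were 9.15% and 5.07%, 8.36% and 4.57%, and 6.14% and 4.67% in AT2-like, DATP-like and AT1-like cells, and 20.4% and 8.38%, and 14.7% and 8.35%, between classes. With so few genes tested, the counts are given as descriptions.

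**Figure D5:**
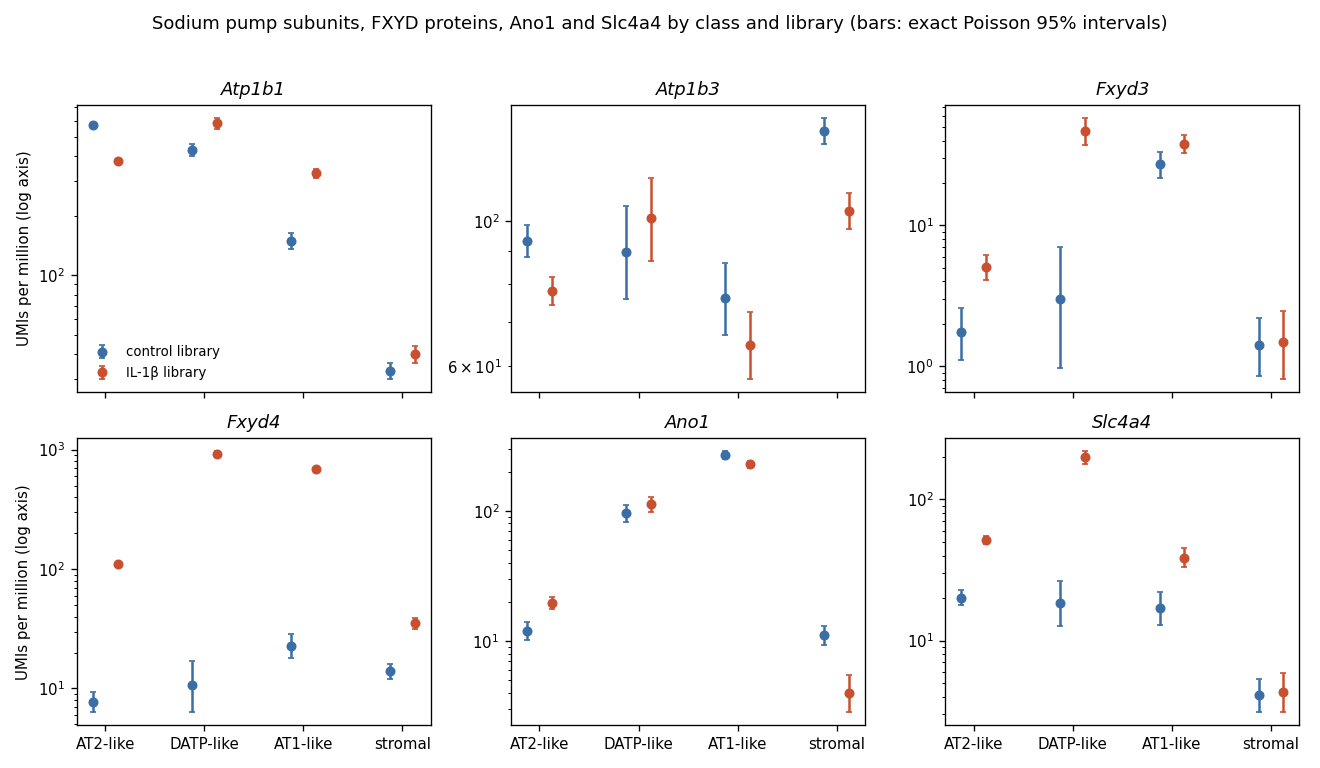
Level in CPM (log axis) of the sodium pump subunits Atp1b1 and Atp1b3, of Fxyd3 and Fxyd4, of the chloride channel gene Ano1 and of the bicarbonate cotransporter gene Slc4a4 by class and library, with exact Poisson 95% intervals. Fxyd4 lies at 7.77 to 22.8 in control and 111 to 926 in IL-1β epithelial classes, and Slc4a4 at 18.5 in control and 198 in IL-1β DATP-like cells.

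Of the other aquaporins, Aqp3, which also carries glycerol, gave 10.2 CPM in IL-1β against 0.377 in control AT2-like cells (204 UMIs against 5, a ratio of 27.0, 11.4 to 84.2). Aqp4, a basolateral water channel, had 0 UMIs in control AT2-like and DATP-like cells and 180 and 67 in IL-1β cells, which with 3 counts allowed for 0 puts it at least 39.8-fold and at least 20.2-fold higher, at 9.0 and 36.1 CPM. Aqp1 gave 193 and 29.3 in control and IL-1β stromal cells and 7.10 and 1.00 in AT2-like cells. Of the 10 aquaporins, 5 could be compared in AT2-like cells, with 2 higher and 2 lower, 2 in DATP-like cells, with 1 higher and 0 lower, and 3 in AT1-like cells, with 1 higher and 1 lower. Over all genes 9.15% were higher and 5.07% lower in AT2-like, 8.36% and 4.57% in DATP-like, and 6.14% and 4.67% in AT1-like cells.

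Among the 19 chloride channels and anion exchangers, Ano1, a calcium-activated chloride channel, had the opposite class pattern to Cftr in the control library. In the IL-1β library the ratio of AT1-like to AT2-like cells for Cftr was 0.810 (0.644 to 1.01), which included 1. Ano1 gave 268 CPM in control AT1-like against 12 in AT2-like cells, 22.4-fold (18.9 to 26.6). In the IL-1β library Ano1 gave 227 against 19.6, 11.6-fold (10.3 to 13.1). Its ratio of IL-1β to control was 0.845 in AT1-like cells (0.771 to 0.926). Slc4a3, an anion exchanger, gave 0.597 and 5.93 in control and IL-1β DATP-like cells, from 1 and 11 UMIs. From control to IL-1β, 3 of 12 tested were higher in AT2-like cells and 1 lower, 2 and 0 of 9 in DATP-like and 2 and 0 of 10 in AT1-like cells, and Cftr and Slc26a4 are among them in each class. The background shares were 9.15% higher and 5.07% lower, 8.36% and 4.57%, and 6.14% and 4.67%, in the same order.

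Partners of Slc12a2 were counted in the same way. Of the 14 cation-chloride cotransporters and their kinases, 9 were tested, and from control to IL-1β 0 were higher or lower in AT2-like and AT1-like cells, and 0 higher and 1 lower, Slc12a2, in DATP-like cells. Between the libraries 9.15% of all genes were higher and 5.07% lower in AT2-like, 6.14% and 4.67% in AT1-like and 8.36% and 4.57% in DATP-like cells. In control AT1-like cells 4 of the 9 were higher than in AT2-like cells and 2 lower, against 20.4% and 8.38% of all genes. Wnk1, a kinase that signals to the cotransporters, gave 320 against 101 CPM and Slc12a4, a potassium-chloride cotransporter, 68.5 against 14.4, whereas Wnk4 gave 7.61 against 45.4 and Stk39, the kinase that activates NKCC1, 9.14 against 36.5.

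Bicarbonate carriers showed large single differences. Slc4a4, the basolateral sodium-bicarbonate cotransporter, gave 18.5 CPM in control and 198 in IL-1β DATP-like cells, 10.7-fold (7.42 to 16.0), with 2.56-fold (2.24 to 2.94) in AT2-like and 2.27-fold (1.67 to 3.12) in AT1-like cells. Car2, a carbonic anhydrase, gave 80.2 against 21.8 in AT2-like cells, a ratio of 0.271 (0.242 to 0.303). Car8 was at 324 and 346 in AT2-like and 35.9 and 38.2 in AT1-like cells of the control and IL-1β library, and Slc4a5 at 15.5 and 19.9 in DATP-like against 8.91 and 3.70 in AT2-like cells. Of the 14 genes of this list 9 were tested, with 1 higher and 2 lower in AT2-like, 1 and 2 in DATP-like and 2 and 1 in AT1-like cells, against 9.15% and 5.07%, 8.36% and 4.57%, and 6.14% and 4.67% of all genes.

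Potassium channels set the driving force for chloride. Of 12, Kcnk2 gave 56.0 CPM in control AT1-like against 4.08 in AT2-like cells, Kcnk5 1.83 against 13.4 and Kcnq1 4.57 against 26.0. Kcne2, a channel accessory subunit with only 223 UMIs over all epithelial cells, turned over between libraries. It gave 2.13 in AT1-like and 7.62 in AT2-like cells of the control and 8.54 and 0.70 in those of the IL-1β library. From control to IL-1β, 1 of 7 tested was higher and 2 lower in AT2-like cells, 0 and 2 of 5 in DATP-like and 3 and 0 of 6 in AT1-like cells. Of the 12 genes for secretion signals, 2 of 8 were higher and 0 lower in AT2-like cells, 0 and 0 of 5 in DATP-like and 4 and 0 of 7 in AT1-like cells. For both lists the shares of all genes higher and lower were 9.15% and 5.07% in AT2-like, 8.36% and 4.57% in DATP-like and 6.14% and 4.67% in AT1-like cells. Adora1, an adenosine receptor, had 1 UMI in control and 46 in IL-1β AT1-like cells, a ratio of 34.0 (5.80 to 1370), and 19 and 185 UMIs in AT2-like cells, 6.45-fold (4.02 to 11). Adora2b gave 29.8 and 73.3 CPM in AT1-like cells, Pde4d, which degrades cAMP, 15.5 and 31.9, and P2ry2, a receptor for extracellular ATP, 7.61 and 7.65.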

How the data were processed

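The authors deposited raw UMI counts per gene and cell for both libraries, made with Cell Ranger on GRCm38 per their methods. The lowest barcode held 4605 (control) and 4975 UMIs (IL-1β), and stromal cells were included. The cutoffs of the study were applied to each barcode (over 500 but under 7000 detected genes, over 2000 UMIs), which 2083 of 2101 control and 3059 of 3066 IL-1β barcodes passed, and scrublet was run per library with its doublet settings. Counts scaled to 10000 per cell were log-transformed. With scanpy 1.11.5, 50 principal components fed a 15-neighbor graph, which was clustered jointly with Leiden (leidenalg 0.10.2, resolution 1.0) over 1469 genes, after stromal clusters were set aside. The study used Louvain clustering, which was run as an alternative.

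Each cluster was scored for every marker list by the mean log2 fold against the rest of the epithelium in the same library (pseudocount 0.1 per 10000), and the best score gave its name. It stayed unnamed where mitochondrial or airway genes or markers of another class led, where fewer than 3 markers were up, or where no score was above 0. This rule was set after cluster scores and the levels of the 9 genes by cluster had been seen. Scoring against both libraries was also looked at, and the condition that cycling markers must lead was added after a Ccl20-led cluster had scored as cycling. The 9 genes, the 8 pathway lists (110 genes, members included) and the markers were chosen with earlier results of these data known.

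Ratios carry exact conditional 95% intervals. A gene was counted as higher or lower at a ratio of at least 2 or at most 0.5 with at least 20 UMIs over both groups, and a count of 0 was taken to allow 3. Beside the 9 genes, the text names β subunits of the sodium pump, up to 4 genes of each list with at least 100 epithelial UMIs and the largest log2 ratio over the 7 comparisons, and the 3 genes most like each member among those with at least 500 UMIs. Some genes that this rule named are not reported here. Gene positions are from GENCODE M21 and promoters from RefSeq, which matched 7 of the 9 members. Sequence of 1 member, Slc12a2, was not used. The alternatives varied the cell filter, doublets, clustering, scaling and class boundaries. Clustering on all highly variable genes was the alternative in which the 9 genes and their pathway partners could shape the clusters.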

Additional observations from a re-analysis of the deposited data

Results flagged for a closer look

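Atp1b1 moved in opposite directions between the libraries. Its ratio of IL-1β to control was 0.662 in AT2-like cells, with an interval below 1, and 2.19 in AT1-like cells, with an interval above 1. Against the 0.662 of AT2-like cells, the ratio in DATP-like cells was 1.36, also with an interval above 1. Each class holds 1 library per condition, so these differences were not tested.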

How the results depend on the processing

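Of the 63 member ratios, 56 kept 1 sign under all 12 alternatives that gave a value, and no ratio past 2-fold changed its sign. The sign of 7 ratios short of 2-fold changed, those of Scnn1a in AT2-like cells (-0.71 to 0.29 on the log2 scale), of Slc12a2 in AT2-like (-0.18 to 0.03) and AT1-like cells (-0.35 to 0.22), and of Slc26a4 and Cftr between classes. The number of members past 2-fold in IL-1β DATP-like over AT2-like cells was 6, and 2 at a resolution of 0.5; the other counts stayed within 1.5 times. Control DATP-like cells numbered 0 to 172, and the comparisons with them gave no value under the 5 alternatives that left under 30. Counting unnamed clusters as AT2-like left Scnn1b at -0.30 and Scnn1g at -0.97 between libraries in AT2-like cells. The largest of these clusters, led by Cd14, had its best score for DATP and not AT2 markers. The cycling cluster took no class name, so it was left out throughout and its planned removal gave no separate value. Counting it, or the unnamed clusters, as AT2-like are 2 alternatives that were chosen after seeing the data. No paired analysis was possible because each condition has 1 library. Depth limits Cftr, Fxyd3 and the DATP-like Scnn1g, which rest on 5 to 49 UMIs in some classes. It also limits Scnn1g in IL-1β AT2-like cells (26 UMIs), Scnn1b in IL-1β DATP-like cells (27) and Slc26a4 in control AT1-like cells (46).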
